A study of Tupaia belangeri with 6 samples.

Results

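Neurofilament subunits and neuronal microtubule proteins were followed through RNA-seq of the prefrontal cortex (PFC) of 6 adult tree shrews (Tupaia belangeri), 3 females (numbered 1, 3 and 4) and 3 males (numbered 1, 4 and 5). The set was 9 gene symbols, namely the neurofilament subunits NEFL, NEFM, NEFH and INA, the microtubule-associated proteins MAP2, MAP1A and MAP1B, the tubulin TUBB3 and the tubulin-binding protein STMN2. A locus was taken where its symbol in the abundance tables equalled one of these names, and rows sharing a gene ID and a chromosome were summed, which left 1 row for each locus found. Of the 9 symbols, 8 had a locus and 7 were above 0 TPM in every animal, among 95863 loci in all, of which 22608 carry a symbol. The animals had no treatment, transgene or deletion in their labels. In the sample list of the study all males are older than all females, and sex and age cannot be told apart in any comparison of the sexes below. Each library is 1 animal, made from polyadenylated RNA of a piece of tissue, and in such bulk samples fewer cells of a type and less RNA per cell cannot be told apart.

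Neurofilaments are the intermediate filaments of neurons. In the central nervous system the light (NEFL), medium (NEFM) and heavy (NEFH) subunits and alpha-internexin (INA) assemble into one mixed filament, which fills large axons and helps to set their calibre. Microtubules run beside them as tracks for transport. They are built from alpha- and beta-tubulins such as the neuronal TUBB3, stabilised in dendrites by MAP2 and in axons and dendrites by the MAP1 proteins, and made more dynamic by stathmins such as STMN2, which bind free tubulin and act in growing and regenerating axons.

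Levels are given in TPM, the transcript abundance per length scaled to the library, so levels of different genes can be compared within an animal. TPM summed to between 950532 and 971492 over a library. It keeps no sequencing depth, and no counting interval could be computed, but the mean read depth over each of the 7 expressed members was high, from 48.8 for NEFH in male 5 to 1308 for TUBB3 in female 4. Loci without an assigned strand took 2.30% to 3.33% of the TPM in the females and male 4, but 5.16% in male 1 and 7.88% in male 5, so these 2 libraries stood apart. Of 7 markers of neurons fixed for the check of the tissue, RBFOX3 and ENO2 had no row. The others were expressed at means from 177 TPM for GAD1 to 4188 TPM for SNAP25. SLC17A7, the glutamate transporter of cortical excitatory neurons, was at 1165 TPM. No strand-specific library protocol is stated, so values at overlapping loci on opposite strands are uncertain.

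The symbol NEFL sits on a locus that is listed at 0 TPM in all 6 animals. It spans 1993 bp on the plus strand of chromosome 13 (TS_3.0, chr13:80889473-80891465). A gene-like copy named NEFLli1 lies instead on the minus strand of chromosome 19 (chr19:10502144-10511950), 28320 bp from NEFM (chr19:10461985-10473823, plus strand), with 0 loci of known strand between them. In the RefSeq annotation of the other tree shrew assembly, TupChi_1.0, the gene called NEFL is likewise the neighbour of NEFM, with a single small RNA locus between them. NEFLli1 was expressed at 234, 252 and 178 TPM in females 1, 3 and 4 and at 248, 147 and 203 TPM in males 1, 4 and 5, a mean of 210.3 ± 41.9 (SD, n = 6). The sequences needed to identify the locus were not used here, so NEFLli1 is described under its own name beside the members. A value of 0 says only how the locus is listed, since the tables hold no read counts and widely used genes such as EEF1A1 and RPS10 are also listed at 0. Of gene-like copies of 2 other members, NEFHli1 was listed at 0 TPM in every animal and STMN2li1 at 0 in all except male 4, at 0.105 TPM.

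No row carried the symbol MAP1A, and MAP1A was not analysed here under its name. In TupChi_1.0 the RefSeq gene MAP1A lies between TP53BP1 and PPIP5K1. In the abundance tables a locus without a symbol lies at that place on the minus strand of chromosome 4 (chr4:95590076-95611089), spanning 21014 bp. This unnamed locus was expressed at 349, 433 and 213 TPM in females 1, 3 and 4 and at 247, 301 and 289 TPM in males 1, 4 and 5, a mean of 305 ± 78.1 (SD, n = 6). It overlaps both neighbours at its ends on the opposite strand, by 1574 bp with PPIP5K1 (40.9 to 65.5 TPM) and by 874 bp with TP53BP1 (30 to 55 TPM), levels well below its own. Its identity was not established here, and it is described as the unnamed locus between PPIP5K1 and TP53BP1.

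By TPM the 7 expressed members fell into 3 tiers of level. STMN2 (745 ± 87.2 TPM, SD, n = 6) and TUBB3 (737 ± 162) were at the top, MAP2 (315 ± 64.5), MAP1B (223 ± 34.1) and INA (189 ± 23.6) followed, and NEFM (81.0 ± 21.2) and NEFH (80.3 ± 27.6) were lowest. By mean TPM, STMN2 and TUBB3 ranked 142 and 143 among the 28740 loci tested, MAP2 437, MAP1B 674, INA 821, NEFM 2205 and NEFH 2229. These tested loci, called genes below, include gene-like copies and loci without a symbol. NEFM and NEFH, the lowest of the 7 members above 0, stood above 92.2% of the tested loci. The place of STMN2 depended on the measure. Mean read depth over the locus, the other value in the tables, was 200.4 to 279.6 for STMN2 against 575 to 1308 for TUBB3, 268 to 441 for MAP2 and 211 to 322 for MAP1B, and STMN2 lay below each of these 3 genes in 6 of 6 animals. Its TPM per unit of read depth was 4.03 to 4.04 times that of TUBB3, while for NEFM, INA and NEFLli1 the factor was about 1 and for NEFH 1.26 to 1.27. For MAP1B the factor was 1.04 to 1.08. For MAP2 it ran from 1.05 to 1.32 over the animals, so ratios with MAP2 depend on the measure in each animal.

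Within animals, TUBB3 exceeded MAP2, MAP2 exceeded MAP1B, MAP1B exceeded INA and INA exceeded NEFM in 6 of 6 animals. Each of these 4 steps had p = 0.0312 by the exact two-sided sign-flip permutation test of the log2 ratio, the smallest p that 6 animals allow, and p = 0.0469 after adjustment over the 6 neighbouring pairs. The pairs and their direction were read from the mean TPM of these same animals. The p-values therefore describe how regular each step was and do not test an order set beforehand. The step from MAP1B to INA was the smallest of the 4, with a mean log2 ratio of 0.23 ± 0.0844 (SD, n = 6). The largest were those from INA to NEFM at 1.25 ± 0.249 and from TUBB3 to MAP2 at 1.22 ± 0.547. Their order rested on single animals, since without male 5 they were 1.19 and 1.39. STMN2 exceeded TUBB3 in only 2 of 6 animals (exact p = 0.812), and NEFM exceeded NEFH in 4 of 6 (exact p = 0.656), so by TPM the order within these 2 pairs was not resolved. By read depth, compared after the TPM values were seen, STMN2 lay below TUBB3 in 6 of 6 animals and NEFM exceeded NEFH in 6 of 6 (exact sign-flip test, p = 0.0312 for each), the steps from TUBB3 to MAP2, MAP2 to MAP1B and MAP1B to INA again held in 6 of 6 animals, and STMN2 was not resolved from INA (INA higher in 4 of 6, exact p = 0.438). With NEFLli1 and the unnamed locus placed in the order there are 8 neighbouring pairs, and the adjusted p of each pair that held in all 6 animals was 0.0833. In that order the unnamed locus was not resolved from MAP2 (MAP2 higher in 3 of 6 animals, exact p = 0.656), nor NEFLli1 from MAP1B (MAP1B higher in 4 of 6, exact p = 0.344) or from INA (NEFLli1 higher in 4 of 6, exact p = 0.125).

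**Figure D1:**
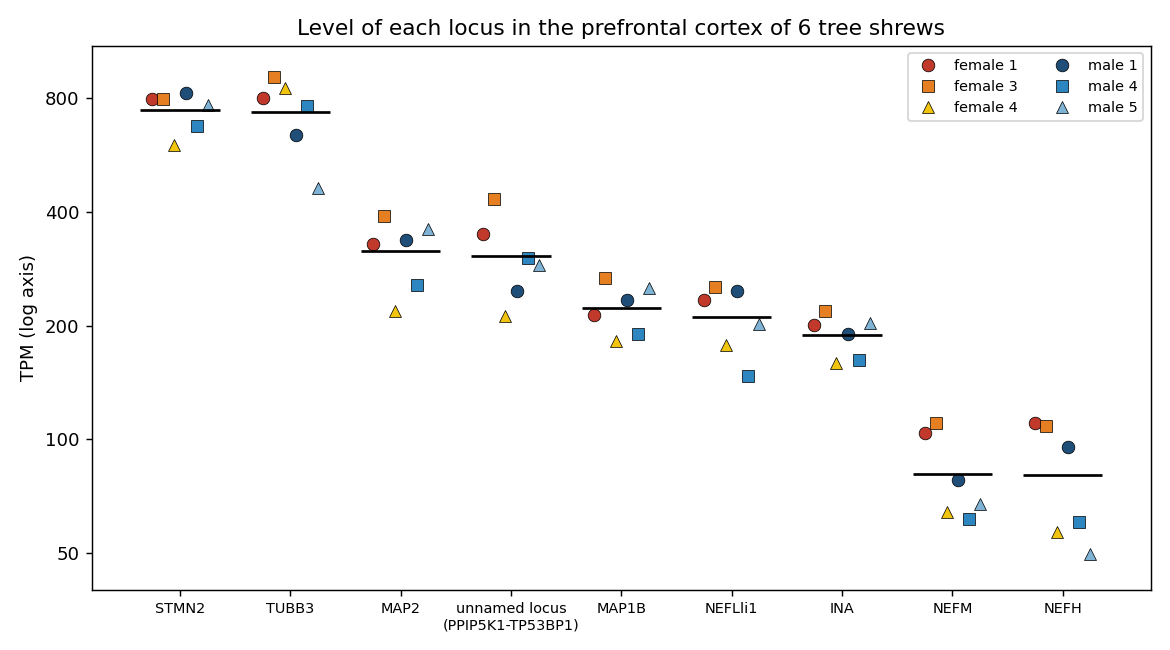
TPM of each expressed member and of the 2 related loci (log axis) in the 6 animals, with symbols for the animals and a bar for the mean of all 6. STMN2 and TUBB3 sit between 463 and 908 TPM, and NEFM and NEFH between 49.7 and 111 TPM, below every value of the other loci drawn. NEFL, listed at 0, and MAP1A, without a row, are not drawn.

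Of the neurofilament subunits, NEFM, whose long tail projects from the filament, was at 104, 110.3 and 64.2 TPM in females 1, 3 and 4 and at 77.9, 61.5 and 67.6 TPM in males 1, 4 and 5. Females 1 and 3 were highest, and female 4 lay within the range of the males. NEFH (chr22:17666106-17676035, plus strand), the subunit with the longest and most heavily phosphorylated tail, was at 111, 109 and 57.0 TPM in the females and at 95.4, 60.5 and 49.7 TPM in the males. Females 1 and 3 and male 1 formed a high group and the other 3 animals a low one, so the split ran across the sexes. A minus-strand locus, THOC5li2, overlaps NEFH by 4198 bp and was at 22.6 to 28.1 TPM.

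INA (chr14:13808043-13826569, plus strand), the subunit that can form filaments by itself and appears early in development, was the steadiest of the named subunits. It was at 201, 218 and 159 TPM in females 1, 3 and 4 and at 190.4, 163 and 203 TPM in males 1, 4 and 5. Female 4 was lowest and female 3 highest, so the females alone covered the whole range of the males. INA overlaps 2 named loci on the opposite strand, NT5C2li1 by 1617 bp (25.7 to 56.7 TPM) and PCGF6 by 578 bp (3.62 to 9.25 TPM).

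The summed TPM of the neurofilament symbols, with NEFL at 0, came to 416, 437 and 280.1 TPM for females 1, 3 and 4 and to 364, 285 and 321 TPM for males 1, 4 and 5. The female mean exceeded the male mean by 54.5 TPM, with overlapping values (exact two-sided permutation test, p = 0.4; 3 animals against 3 cannot go below 0.1). With NEFLli1 added the sums came to 649, 689 and 458 TPM for the females and to 611, 432 and 523 TPM for the males, a difference of 76.8 TPM (exact permutation test, p = 0.4) that moved to 31.6 TPM without female 3 or male 4, 121 without male 1 and 147 without female 4. The difference of the named sum rested on single animals, at 24.8 TPM without female 3, 35.4 without female 1, 35.3 without male 4 and 103 without female 4.

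NEFLli1 and INA together supplied most of the neurofilament sum in every animal. Counting NEFLli1, its own share was 34.1% to 40.5%, that of INA 30.9% to 38.9%, that of NEFM 12.7% to 16.1% and that of NEFH 9.50% to 17.1%. Among the named subunits alone, INA held 48.3% to 63.4%, most in male 5 and least in female 1. The NEFM share of the named sum was 22.9% to 25.2% in females and 21.1% to 21.6% in males, which did not overlap, but the exact permutation p of 0.1 was the smallest possible and became 0.467 after adjustment over the 7 shares compared. That separation was lost when NEFLli1 entered the sum (exact permutation test, p = 0.2).

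**Figure D2:**
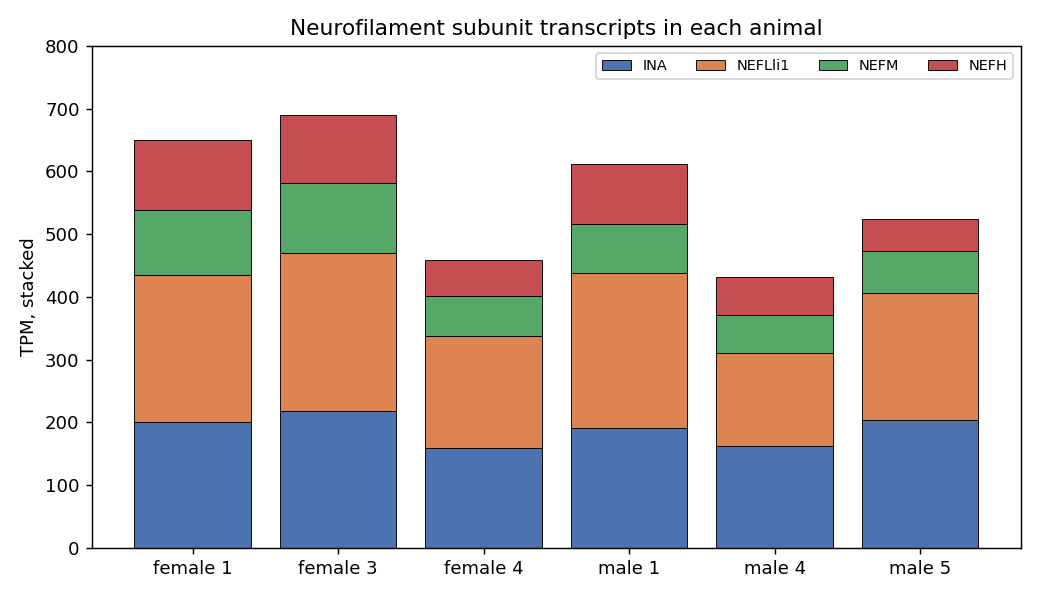
TPM of INA, NEFLli1, NEFM and NEFH stacked for each animal. The stacks range from 432 TPM in male 4 to 689 TPM in female 3, and INA and NEFLli1 form the larger part of each; NEFL is not drawn because it is listed at 0.

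Ratios within an animal do not depend on how its library was scaled. By TPM, NEFM and NEFH stayed close to parity, with ratios of 0.941, 1.02 and 1.13 in females 1, 3 and 4 and of 0.817, 1.02 and 1.36 in males 1, 4 and 5. By read depth the same ratio was above 1 in every animal, from 1.03 in male 1 to 1.72 in male 5. NEFM relative to INA ran from 0.332 in male 5 to 0.520 in female 1, and NEFH relative to INA from 0.244 in male 5 to 0.552 in female 1. NEFLli1 exceeded NEFM by 2.24 to 3.18 times and NEFH by 2.11 to 4.07 times in every animal, and INA stood at 0.769 to 1.11 times NEFLli1. The NEFH ratios were the widest of these, since NEFH:INA varied 2.26-fold over the animals and NEFLli1:NEFM only 1.42-fold. Of 9 ratios chosen among the symbols, 3 could be computed, because NEFL is at 0 and MAP1A has no row, and 9 more were added after the data were seen. For none of the 12 was a difference between the sexes detected by the exact permutation test, with a smallest adjusted p of 0.6.

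MAP2 and MAP1B moved closely together. MAP2 (chr1:192395217-192743866, plus strand), the dendritic microtubule protein, was at 329, 389 and 219 TPM in females 1, 3 and 4 and at 336, 257 and 360 TPM in males 1, 4 and 5. MAP1B (chr10:1055300-1170091, minus strand), a microtubule protein prominent in growing axons, was at 213, 268 and 182 TPM in the females and at 234, 189.8 and 251 TPM in the males. Both were highest in female 3, then in male 5, and lowest in female 4, and the 6 animals had the same rank order for the 2 genes. By TPM, MAP2 exceeded MAP1B by 1.20 to 1.54 times, with an SD of the log2 ratio of 0.12 (n = 6), the narrowest of the 12 ratios. By read depth the ratio was 1.19 to 1.40, and female 1, the highest by TPM, was at 1.23. The unnamed locus varied more against MAP1B, from 1.06 times in male 1 to 1.64 times in female 1.

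TUBB3 and STMN2 were at nearly equal mean TPM, though not read depth, and were distributed differently among the animals. TUBB3 (chr27:14789407-14797862, minus strand), the beta-tubulin used as a marker of neurons, was at 802, 908 and 851 TPM in females 1, 3 and 4 and at 639, 762 and 463 TPM in males 1, 4 and 5. Every female was above every male, and male 5 was lowest by a wide margin. STMN2 (chr13:58647389-58710342, minus strand) was at 797, 797 and 602 TPM in the females and at 828, 676 and 770 TPM in the males. Female 4 had the lowest STMN2 and the second highest TUBB3, and male 1 had the highest STMN2 and the second lowest TUBB3.

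STMN2 relative to TUBB3 accordingly stood at 0.993, 0.878 and 0.708 for females 1, 3 and 4 and at 1.30, 0.888 and 1.66 for males 1, 4 and 5. By read depth the ratio was lower, from 0.175 in female 4 to 0.412 in male 5. The log2 ratio of TPM was lower in females by a mean of 0.54, with overlapping values (−0.54, exact permutation test, p = 0.2, adjusted p = 0.6), and this difference was −0.33 without male 5 and −0.79 without male 4. By read depth it was likewise −0.54. By TPM, TUBB3 relative to MAP2 varied most of all the ratios, 3.02-fold, from 1.29 in male 5 and 1.90 in male 1 to 3.89 in female 4. By read depth this ratio varied 2.95-fold. Males 5 and 1, which had the lowest TUBB3, the highest STMN2:TUBB3 and the lowest TUBB3:MAP2, were also the 2 libraries with the largest share of TPM in strandless loci. The part of that share in these ratios was not tested. The female minus male difference in the STMN2:TUBB3 log2 ratio was −0.060 without males 1 and 5, but these are the males with the highest ratios and only male 4 then remains.

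The spread over the animals differed among members. On the log2(TPM + 1) scale the SD over 6 animals was 0.18 for STMN2 and for INA, 0.22 for MAP1B, 0.32 for MAP2, 0.36 for TUBB3 and for NEFM and 0.51 for NEFH, against a median of 0.31 for the 8685 tested genes at a mean of at least 10 TPM. NEFH was at the 85.1 percentile of spread among those genes, and STMN2 and INA at the 12.3 and 13.7 percentiles. Female 4 was lowest of the 6 for INA, MAP2, MAP1B, STMN2 and the unnamed locus, and female 3 was highest for NEFM, INA, MAP2, MAP1B, TUBB3, NEFLli1 and the unnamed locus.

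**Figure D3:**
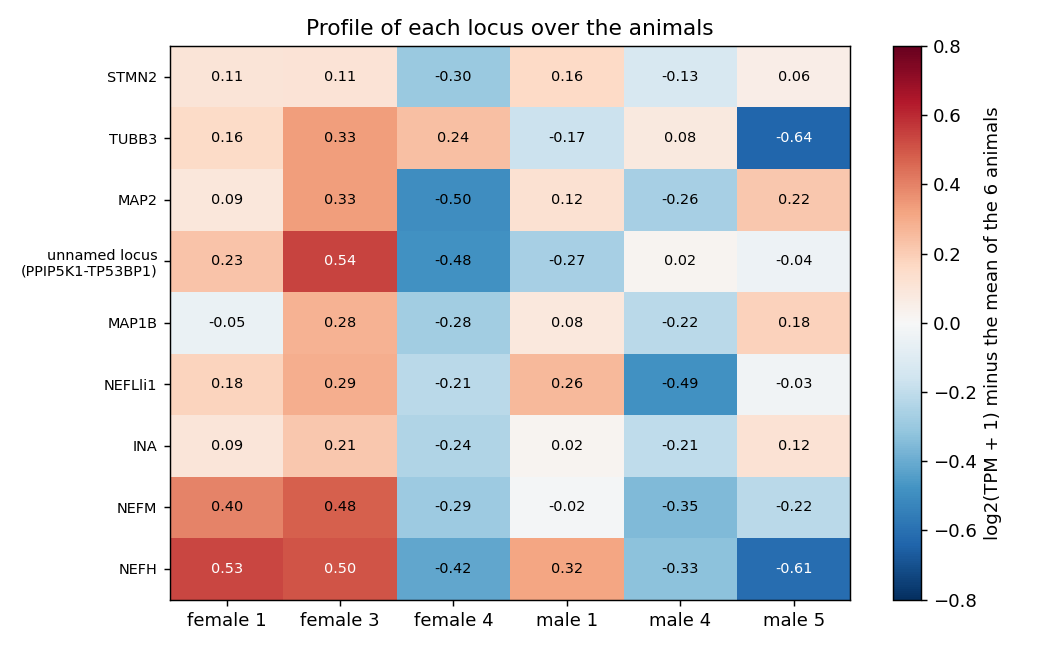
Each cell is the log2(TPM + 1) of a locus in 1 animal minus its mean over the 6 animals (colour and printed value). NEFH spans from −0.61 in male 5 to 0.53 in female 1, and STMN2 only from −0.30 in female 4 to 0.16 in male 1; female 4 is negative for every locus except TUBB3.

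For each member the genes with the most similar profile were taken from the 6397 other named genes at 10 TPM or more, by the root-mean-square (RMS) difference between centred log2(TPM + 1) profiles over the 6 animals. With this few animals and so many candidates, close profiles are a description only. STMN2 had the closest profiles, those of SH3BP4, an endocytic adaptor (RMS difference 0.02), and TPRG1L, a synaptic vesicle protein (0.02). Those nearest MAP1B were the vesicle GTPases RAB14 (0.03) and RAB3C (0.04). MAP2 lay nearest to CAND1, a regulator of cullin ubiquitin ligases (0.03), and ZNF385D (0.04), and INA to the endosomal syntaxin STX7 (0.04) and GNAO1, an abundant neuronal G protein subunit (0.04). NEFM lay nearest to the N-acetyltransferase NAT1 (0.07) and OSGIN1 (0.08). TUBB3 lay nearest to PROSER3 (0.07) and USE1 (0.08), a SNARE of the endoplasmic reticulum. The profiles nearest NEFH were the least close, namely CNDP1, the carnosine-cleaving enzyme (0.09), and ADCY5, the adenylyl cyclase abundant in the striatum (0.09).

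Females 1 and 3 and male 1 had the highest NEFH, NEFM and NEFLli1, a division read from these values themselves. They also had the highest summed TPM of 2 groups of marker genes that are typical of regions below the cortex. The sums for markers of neurons, oligodendrocytes, astrocytes, microglia, endothelium and parvalbumin interneurons did not follow this division. For neurons, male 5 (7236 TPM) lay above female 1 (7205 TPM) and male 1 (7120 TPM). The 3 cholinergic markers CHAT, SLC18A3 and SLC5A7, all with a locus, summed to 5.78, 6.54 and 0.119 TPM in females 1, 3 and 4 and to 9.29, 0.136 and 0.0838 TPM in males 1, 4 and 5. CHAT, which makes acetylcholine, was listed at 0 in female 4, male 4 and male 5. Of 5 markers of striatal projection neurons 2 had a row. Their sum was 183, 181 and 112 TPM in the females and 219.6, 135 and 102 TPM in the males. Nearly all of it was PENK, the precursor of enkephalins, which some cortical neurons also make. Of the 3 markers without a row, 1 has a gene-like copy at a mean of at least 10 TPM, which the sum does not count. The other striatal marker with a row, the dopamine receptor DRD1, did not follow the division, at 5.05, 7.06 and 1.20 TPM in females 1, 3 and 4 but at 4.02 TPM in male 1, 4.83 in male 4 and 2.70 in male 5. The part of such cells in the neurofilament levels was not tested. STMN2 was also highest in females 1 and 3 and male 1, whereas INA, MAP2 and MAP1B did not follow the division, since male 5 ranked second for each of them. The summed TPM of the 3 markers of parvalbumin interneurons, cells known for strong neurofilament content, did not follow the division either. It was 187, 196 and 178 TPM in females 1 and 3 and male 1, and 216, 217 and 179 TPM in female 4 and males 4 and 5.

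**Figure D4:**
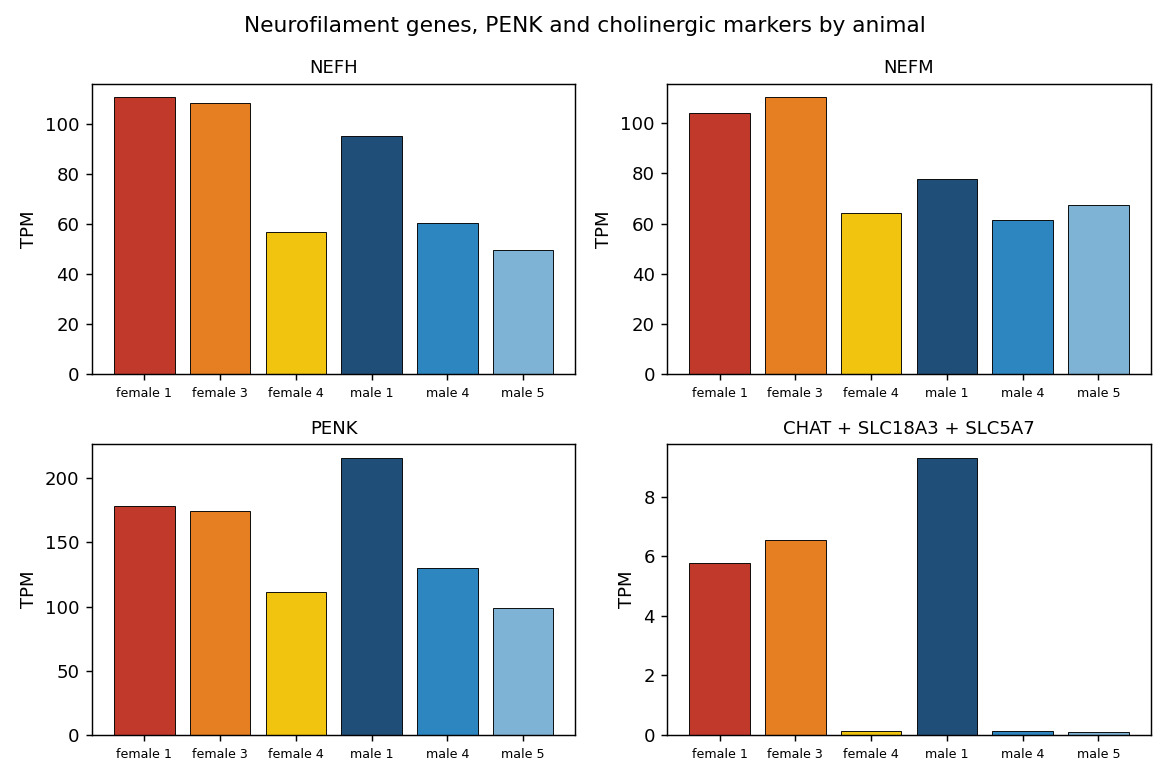
TPM by animal of NEFH, NEFM, PENK and the sum of CHAT, SLC18A3 and SLC5A7 (linear axes from 0, a separate scale in each panel). Females 1 and 3 and male 1 have the 3 tallest bars in each panel, and the cholinergic sum is at most 0.136 TPM in the other 3 animals.

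Between the sexes, none of the members was called different. Differences (female minus male, in log2(TPM + 1)) were fitted with limma over every gene that reached 0.1 TPM in at least 3 animals, a filter that 7 of the 9 members passed. On this scale 0 of the 7 had a limma adjusted p under 0.1, against 0.0143% of the 27996 autosomal genes tested. At an unadjusted p under 0.05 there were also 0 members, beside 2.42% of autosomal genes higher in females and 2.62% higher in males. That count was not stable, since NEFM and NEFH passed the unadjusted level without female 4, and TUBB3 passed it without male 4, with FPKM and with a filter at 1 TPM, each of them higher in females and none called. The median difference was 0.05 over the 7 members, −0.03 over all autosomal genes tested and 0.05 over those at a mean of at least 10 TPM. Of the members, 4 of 7 were higher in females on average, beside 57.6% of autosomal genes at that level.

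TUBB3 had the largest difference, 0.49 (SE 0.247, 95% confidence interval −0.08 to 1.05, limma adjusted p = 0.925). It was the single member in which every female exceeded every male, which 4.84% of the autosomal genes tested did, and for no member did every male exceed every female, the case for 4.97% of autosomal genes. The TUBB3 difference was 0.29 without male 5, and 0.16 without males 1 and 5, the animals with the lowest TUBB3, where male 4 is the only male left and is assumed to vary like the females. NEFH differed by 0.41 (SE 0.320, interval −0.32 to 1.14) and NEFM by 0.39 (SE 0.232, interval −0.14 to 0.92), each with a limma adjusted p of 0.925. Both depended on single animals. The NEFH difference was 0.72 without female 4 and 0.68 without male 1, but 0.21 without male 5, 0.25 without female 1 and 0.26 without female 3. The NEFM difference was 0.64 without female 4 and 0.25 without female 3.

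The other 4 members differed by less than 0.06 in either direction. INA differed by 0.05 (SE 0.188, interval −0.38 to 0.48), MAP1B by −0.03 (SE 0.206, interval −0.50 to 0.44), MAP2 by −0.05 (SE 0.254, interval −0.63 to 0.53) and STMN2 by −0.06 (SE 0.227, interval −0.57 to 0.46). NEFLli1 differed by 0.17 (SE 0.236, interval −0.37 to 0.71) and the unnamed locus by 0.19 (SE 0.269, interval −0.42 to 0.81). Each of these intervals reached −0.37 or lower and 0.44 or higher on the log2 scale, so differences of up to that size in either direction were not excluded. With 1 animal left out, the NEFLli1 difference ran from −0.032 (without male 4) to 0.34 (without male 1). It was 0.57 without males 1 and 5, where male 4 is the only male left. The difference of the unnamed locus ran from −0.030 (without female 3) to 0.48 (without female 4). Of 7 markers of oligodendrocytes, the cells that wrap axons in myelin, 4 had a row. Their sum lay between 491 and 673 TPM for females but between 133 and 370 TPM for males, without overlap. Of the 4, 0 were called by limma, beside 0.0143% of autosomal genes. At an unadjusted limma p under 0.05, 3 were higher in females, beside 2.42% of autosomal genes. MAG was the only one of the 4 with every female above every male, the case for 4.84% of autosomal genes. The sum covers only what the plain symbols hold, since MBP was at a mean of 11.2 TPM and its gene-like copy, not counted, at 1622 TPM. The part of oligodendrocytes in the member differences was not tested.

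**Figure D5:**
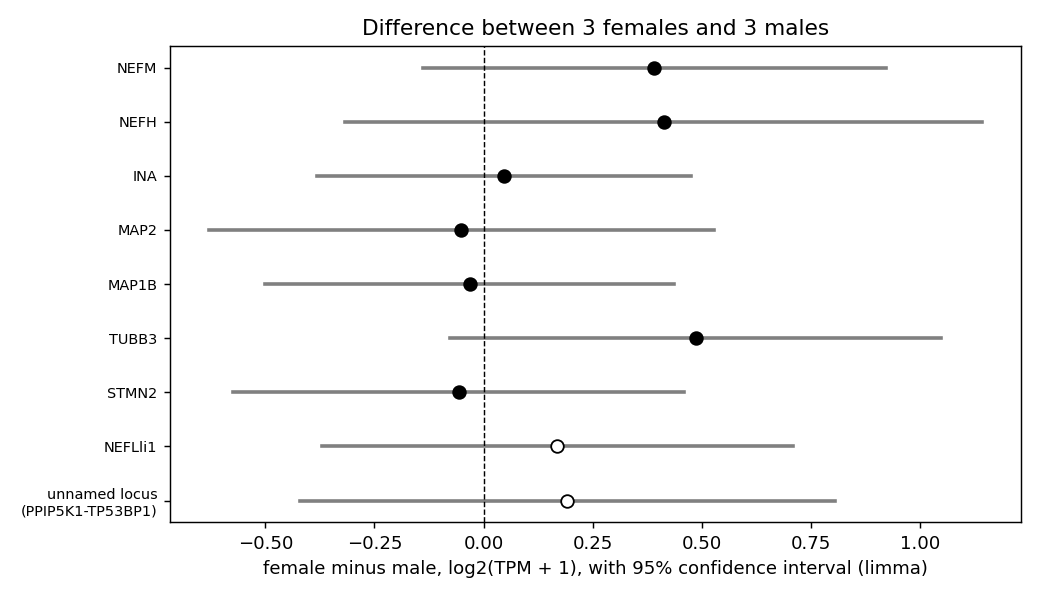
Female minus male difference in log2(TPM + 1) for each tested member (filled) and the 2 related loci (open), with 95% confidence intervals from limma, 3 animals a sex. Every interval crosses 0, and TUBB3 at 0.49 lies farthest from it.

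The wider cytoskeleton was read from 7 lists with 103 other genes, of which 22 had no row, 7 were listed at 0 in every animal and 70 were tested. Of these 70, 0 were called by limma at an adjusted p under 0.1, beside 0.0143% of autosomal genes, and 1 had an unadjusted p under 0.05, a smaller share than the 2.42% higher in females and 2.62% higher in males among autosomal genes. This was DCLK2, a doublecortin-like kinase that binds microtubules, at 77.3 to 115 TPM among females and at 63.5 to 65.8 TPM among males (log2 difference 0.53, SE 0.185, limma adjusted p = 0.925). On average 50 of the 70 were higher in females and 20 in males, beside 46.7% of all autosomal genes tested, and 57.6% of those at 10 TPM or more, that were higher in females.

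Among 16 other tubulins, 8 were tested with a median difference of 0.12, and the most abundant were TUBB2A (1619 ± 243 TPM, SD, n = 6), TUBB4A (1231 ± 166) and the alpha-tubulin TUBA4A (947 ± 133). TUBB3 supplied 16.9% to 22.6% of the TPM of the 6 beta-tubulin symbols with a row, least in male 5 and most in male 4. TUBB4A lies on an unplaced contig and was not tested. TUBA1C, like NEFL, was listed at 0 while its gene-like copy was at a mean of 403 TPM, and TUBB4B was at 0.367 TPM with a copy at 183 TPM, so the tubulin shares cover only what these symbols hold.

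Of the 3 other stathmins 2 were tested, with a median difference of 0.10. STMN1, the widely expressed founding member, was at 2636 ± 303 TPM (SD, n = 6) and STMN4 at 219 ± 28.7 TPM, both with values that overlapped between the sexes. STMN2 supplied 15.3% to 23.1% of the summed TPM of STMN1, STMN2 and STMN4, a share that depends on the measure as its level does, and the low value was that of female 4. In the other 5 animals its share was 21.2% or more.

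Of 26 other microtubule-associated proteins and collapsin response mediators 21 were tested, with a median difference of 0.16, led by MAP4 (347 ± 93.8 TPM, SD, n = 6), MAP7D1 (297 ± 50.6) and the axonal protein tau, MAPT (278 ± 66.2). MAPT lay between MAP2 and MAP1B in mean level, and MAP4 just above MAP2. Of 27 kinesin, dynein and dynactin genes 19 were tested, with a median difference of 0.13. The motors that carry synaptic vesicle precursors and neurofilaments along axons, KIF1A (804 ± 146 TPM) and KIF5A (552 ± 142), were at levels near or above those of TUBB3 and MAP2, and the dynactin subunit DCTN2 was at 315 ± 34.2 TPM. Of the 19, 3 had every female above every male, beside 4.84% of autosomal genes, and 0 were called.

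The 11 genes of the axon initial segment, spectrins and cytolinkers had 8 tested members and a median difference of −0.0034, led by the actin-microtubule linker MACF1 (585 ± 96.3 TPM, SD, n = 6), the spectrin SPTAN1 (290.1 ± 43.6) and the ankyrin ANK2 (143 ± 31.1). Tubulin folding and severing genes, 6 tested of 9, had a median of 0.17, and among them were the folding cofactors TBCD (132 ± 31.7 TPM) and TBCB (71.7 ± 15.2 TPM). The 11 other intermediate filament genes had the lowest median of the 7 lists, −0.18 over 6 tested, of which 4 were higher in males. They were led by the astrocyte filament GFAP (248 ± 64 TPM), VIM (108 ± 31.6) and SYNM (9.17 ± 3.62). The largest difference in this list went the other way, in the muscle filament DES, named after its values were seen, which was at 8.40 to 11.4 TPM among females and 3.36 to 7.96 TPM among males (log2 difference 0.81, SE 0.364, limma adjusted p = 0.925). PRPH, the peripheral neuronal filament, had no row.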

How the data were processed

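Polyadenylated RNA of the PFC of 6 animals was sequenced in paired reads on an Illumina instrument. According to the paper's methods and the submitters' processing notes, the authors mapped reads to TS_3.0 with HISAT2 2.2.1, assembled and merged transcripts with StringTie 2.2.1 and measured each animal against the merged set, without pooling. The deposited TPM values are scaled to each library, and each library's deposited FPKM values differ from its TPM by a single factor. The deposited coverage values give the mean read depth of a locus and carry no scaling. No counts are listed, so the count test of the study was not repeated, and TPM limits the precision to the spread between animals. Nothing in the labels says that animals were paired.

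Rows of one gene ID and chromosome were summed (Python 3.11.15, numpy 2.4.6, pandas 2.3.3, scipy 1.17.1, matplotlib 3.10.9). Every gene that reached 0.1 TPM in at least 3 animals was tested on log2(TPM + 1), which makes changes of low genes look smaller, with limma 3.58.1 (R 4.3.3, mean-variance trend, no covariate), Benjamini-Hochberg adjusted within 27996 autosomal and 744 X-linked genes, with a threshold of 0.1. Segments of the X chromosome and of chromosome 26, and unplaced contigs, were left out. Ratios, sums and shares were set against sex by an exact two-sided permutation test over animals, and neighbouring levels by an exact sign-flip test. The limma step was first tested on simulated data. Named were all members, the 3 most abundant genes of each list (1 of these is not reported here), genes of a list called or among the 2 smallest unadjusted p under 0.05 in each direction, and the 2 genes nearest in profile. Related loci, some ratios, the order by read depth and genes with a symbol listed at 0 were chosen after their values were seen. Members and lists were chosen with earlier results of these data known. Names and neighbours, not coordinates, were taken from RefSeq TupChi_1.0, in which all 9 symbols were found. Alternatives were another pseudocount, filter, scaling, unit, row choice, adjustment and limma setting, an animal-number block and each animal left out.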

Additional observations from a re-analysis of the deposited data

How the results depend on the processing

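The number of members called was 0 under all 16 alternatives, and the summed neurofilament difference was positive under the 11 alternatives run for it, from 24.8 to 103 TPM with 1 animal left out. No member reached an adjusted p below 0.533. TUBB3 kept its sign at 0.16 to 0.65, NEFM at 0.24 to 0.64 and NEFH at 0.064 to 0.72. Differences near 0 changed sign without a call, and the cause was not tested. With TPM rescaled over stranded loci INA was −0.010, and with FPKM MAP1B was 0.0044. With males 1 and 5 left out together MAP2 was 0.24, MAP1B 0.20 and STMN2 0.10. With 1 animal left out INA ranged from −0.049 to 0.18, MAP1B from −0.18 to 0.099, MAP2 from −0.23 to 0.19, STMN2 from −0.14 to 0.078, NEFLli1 from −0.032 to 0.34 and the unnamed locus from −0.030 to 0.48. The mean log2 ratio over the remaining animals, both sexes together, ranged from −0.099 to 0.15 for STMN2 to TUBB3 and from −0.032 to 0.11 for NEFM to NEFH. The animal numbers 1 and 4 occur in both sexes but name different animals, and no label pairs them, so they were not taken as pairs. The deviations of same-numbered animals correlated at 0.00098 and 0.038, and those of differently numbered animals at −0.059 to 0.063. Deviations were taken from the mean of each sex, so these values are tied to each other and cannot decide on pairing. With the number as a replicate block 0 members and 2 autosomal genes were called, and TUBB3 was 0.24, NEFH 0.064, NEFM 0.24 and the unnamed locus −0.0020. The 4 autosomal calls became 0 in limma without the trend and without males 1 and 5, and 2 without female 1, female 3 or male 5, while 881 autosomal genes had an unadjusted p under 0.05 without female 1 and 2392 without male 4. With 5 animals the sign-flip test cannot go below 0.0625. By read depth in place of TPM, chosen after seeing the data, the mean log2 ratio was −1.97 for STMN2 to TUBB3, 0.39 for NEFM to NEFH and 0.34 for MAP2 to MAP1B.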

Other observations

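The pattern seen for NEFL, a plain symbol listed at 0 TPM and a gene-like copy listed well above 0, occurred elsewhere in the abundance tables. Of 1871 symbols that have a locus and at least 1 gene-like copy, 676 were listed at 0 TPM in every animal, and 267 of these had a copy at a mean of at least 10 TPM. NEFL ranked 42 among them by the level of its copy. Among the cytoskeletal lists, MAP1LC3B, the autophagy protein that binds microtubules, was listed at 0 in every animal with a copy at a mean of 177 TPM, and the tubulin folding cofactor TBCA was at 0.033 TPM with a copy at 87.5 TPM. TUBA1A was listed at 0 together with both of its copies. Among the oligodendrocyte markers, MBP, a main protein of myelin, was at 11.2 TPM and its copy at 1622 TPM. These symbols were singled out after their values were seen, and the sequences that would identify the copies were not used here.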
